A study of Oryctolagus cuniculus with 18 samples.

Results

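The genes described here are 200 rabbit genes that were high in neural retina, lower in RPE-choroid, and close to constant in retina after the vitreous was replaced with poly(CEP), so that their level in the RPE-choroid samples could be followed against a fixed retina level. They were chosen from 29587 genes by their CPM, the counts of a gene scaled to a fixed total of counts on genes in each sample. A gene had to have a log2 ratio of mean CPM in non-operated retina to mean CPM in non-operated RPE-choroid, each plus 0.5, of at least 1 (here called T). It also needed a mean of at least 32 CPM in non-operated retina and log2 changes of the mean retina CPM within 0.25 at both 1 month and 2 months. Of 2068 genes with T of at least 1, 1005 had the retina level and 297 of those were within the limit of change. A further 7 were dropped because all 6 retina values after filling lay on one side of the non-operated values, which left 290. The 200 of these with the highest mean CPM in non-operated retina were kept and numbered 1 to 200 in that order.

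Retina and RPE-choroid were taken from male New Zealand White rabbits labelled 4 to 6 months old. The groups were eyes without an operation, and eyes taken 1 month or 2 months after vitrectomy and filling with poly(CEP), a multiblock thermogelling polymer used as a vitreous substitute, with 3 samples of each tissue per group and 18 in all. Eyes with vitrectomy and no polymer were not analysed here, so surgery and polymer cannot be told apart. The study lists the 1-month filled eyes under rabbits with no other operated eye. Its 2-month filled eyes without a disease model are listed as contralateral eyes of rabbits whose other eye had surgery to induce proliferative vitreoretinopathy. Time after filling and surgery on the other eye thus cannot be told apart. The labels call the second tissue retinal pigment epithelium and the study calls it RPE-choroid. The labels do not name the animals, and p-values measure the spread between these samples.

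The neural retina holds the photoreceptors, the neurons they signal to and glia. The retinal pigment epithelium (RPE) is a single layer of pigmented cells that lies against the photoreceptor outer segments, engulfs their shed tips and recycles the visual chromophore. The choroid behind it is a vascular tissue that supplies the outer retina. Photoreceptor outer segments and RPE are in direct contact, and the layers are parted by hand when the tissues are collected.

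The counts on genes ranged from 22335005 to 33505730 per sample, and no 2 replicates agreed within sampling noise, with a chi-square of 12.0 to 488 per gene over the 18 replicate pairs. Replicates 1 and 2 of the filled eyes were closer to each other (12.0 to 25.1) than either was to replicate 3 (132 to 223) in both tissues. Reads with more than 1 alignment made up 13.7% and 13.2% in RPE-choroid and 11.7% and 11.1% in retina for 2-month replicates 1 and 2, and 8.03% to 9.96% in the other samples. The identifiers of the files could not be paired with gene symbols, so the defining markers of either tissue could not be checked and members are called by number.

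The values that chose the members are given as a description. T ranged from 1.00 to 2.21 (median 1.53, quartiles 1.30 and 1.83) and the mean level in non-operated retina from 62.0 to 2245 CPM (median 151). The log2 change in retina at 1 month had a median of -0.03 and lay between -0.25 and 0.25. At 2 months the median was -0.03 and the bounds -0.24 and 0.25. At the limits, the member of lowest level had 62.0 CPM and the next gene outside 61.1. The lowest T was 1.00013 inside and 0.99547 outside, and the larger of the 2 absolute changes was 0.249474 inside and 0.250534 outside. T rests on a mean of 3 unlike samples. Against single non-operated RPE-choroid samples its median was 1.75 for replicate 1, 3.36 for replicate 2 and 0.68 for replicate 3, where 183 of the 200 members were under 1.

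In retina, the median member stood at 101%, 103% and 95.3% of its mean non-operated retina CPM in the 3 non-operated samples. It stood at 92.0%, 99.0% and 103% at 1 month and between 91.5% and 101% at 2 months, so the 3 groups overlapped, as the choice of members requires. The members together held 4.10% to 4.66% of the counts on genes in the 9 retina samples. Their spread between retina replicates was close to that of other genes. The median SD on the log2(CPM + 0.5) scale was 0.14 without an operation, 0.18 after 1 month and 0.17 after 2 months, against 0.13, 0.14 and 0.18 for 6497 other genes with a mean of at least 32 CPM.

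Constancy here means constant per count on genes. With library sizes alone, the median fitted log2 change of the members was -0.03 at 1 month and -0.03 at 2 months, while that of all genes tested was 0.15 at both times. With TMM scaling, which centres the typical gene, the members' medians were -0.17 and -0.18, with 166 and 178 of 200 below 0, and those of all genes tested were 0.01 and -0.0018. In the retina fits with TMM, members 115 and 167 were lower at 1 month (quasi-likelihood test of edgeR, Benjamini-Hochberg adjusted p = 0.0466 and 0.0396), beside 7.07% of all 15878 genes tested that were lower and 10.9% that were higher. At an unadjusted p under 0.05, 25 members were lower beside 15.7% of all genes. At 2 months edgeR called 0 members, beside 2.99% of all genes lower and 8.21% higher, and at an unadjusted p under 0.05 it gave 34 lower beside 12.6% and 0 higher beside 16.6%. With plain library sizes 0 members were called at either time, beside 4.59% of all genes lower and 14.2% higher at 1 month and 1.71% and 11.2% at 2 months. At an unadjusted p under 0.05 that fit gave 1 member lower and 0 higher at 1 month, beside 1561 and 4027 of all 15878 genes. At 2 months it gave 0 members lower and 0 higher, beside 1082 and 3788 of all genes. The rule used these contrasts, so nothing is read from those counts.

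**Figure D1:**
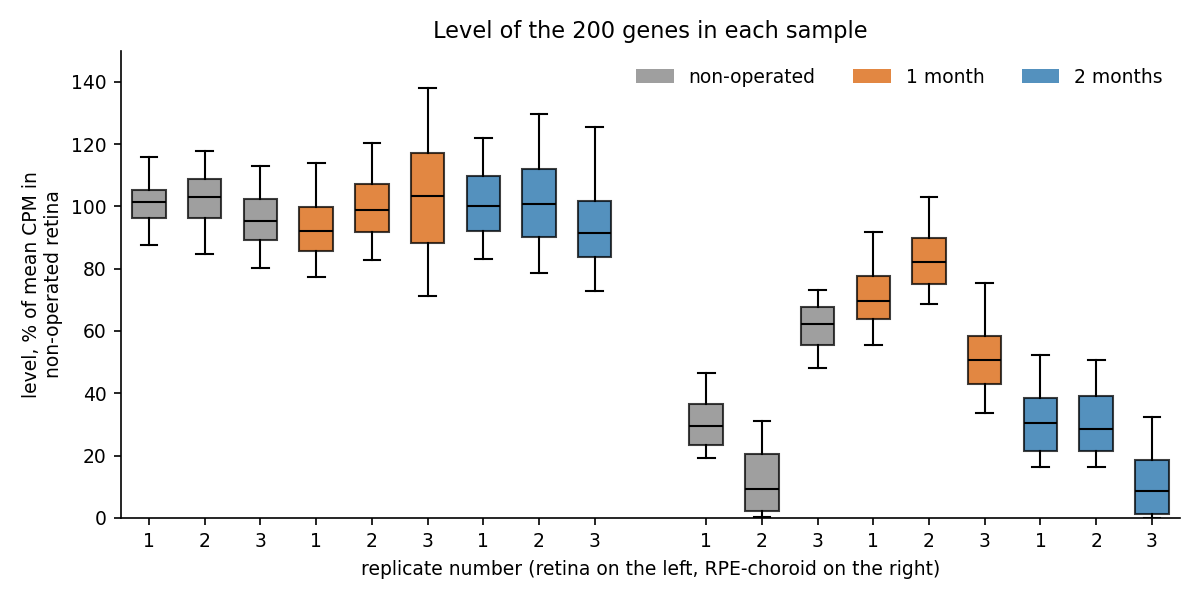
Level of the 200 members in each of the 18 samples, as a percent of the gene's mean CPM in non-operated retina; boxes show the quartiles and median, whiskers the 5th and 95th percentiles. Retina medians lie between 91.5% and 103%, while RPE-choroid medians run from 8.51% to 82.0% and separate the 1-month from the 2-month samples.

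In RPE-choroid, the same genes ranged from a small fraction of their retina level to most of it. At 1 month the median member stood at 69.7%, 82.0% and 50.5% of its mean non-operated retina CPM, which gives 67.4% ± 15.9 (SD, n = 3). At 2 months it stood at 30.5%, 28.6% and 8.51%, or 22.6% ± 12.2 (SD, n = 3). In non-operated eyes it stood at 29.5%, 9.32% and 62.3%, or 33.7% ± 26.8 (SD, n = 3). All 3 samples at 1 month were above all 3 at 2 months, and the non-operated samples overlapped both. At 1 month, 2 of the 3 samples were above every non-operated sample. In bulk samples, fewer cells of a type and less RNA per cell cannot be told apart, and neither can RNA of retina tissue in the sample and RNA made by RPE-choroid cells.

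As a share of counts on genes, the members held 3.18%, 3.69% and 2.26% at 1 month. They held 1.34%, 1.35% and 0.53% at 2 months and 1.37%, 0.57% and 2.70% in non-operated RPE-choroid. Summed over the members, the extremes were 83.6% of the mean non-operated retina sum in 1-month replicate 2 and 12.0% in 2-month replicate 3, the same samples as by the median.

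From highest to lowest, the RPE-choroid samples were 1-month replicates 2 and 1, non-operated replicate 3, 1-month replicate 3, 2-month replicate 1, non-operated replicate 1, 2-month replicate 2, non-operated replicate 2 and 2-month replicate 3. Some neighbours in this order were separated by most members. One-month replicate 2 was above 1-month replicate 1 in 184 of 200 members, 1-month replicate 1 above non-operated replicate 3 in 165, and that sample above 1-month replicate 3 in 158. One-month replicate 3 was above 2-month replicate 1 in 186, and 2-month replicate 2 above non-operated replicate 2 in 199. Other neighbours were not separated. Two-month replicate 1 was above non-operated replicate 1 in 93 of 200, the latter above 2-month replicate 2 in 109, and non-operated replicate 2 above 2-month replicate 3 in 112. The members are not independent of each other, so these counts compare samples and not conditions.

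The members moved together across the 9 RPE-choroid samples. The correlation of a member's log2(CPM + 0.5) with the median of the others had a median of 0.976, was above 0.9 for 187 members and was above 0.8 for 197. The 3 others were member 10 (-0.18), member 13 (-0.15) and member 100 (0.77). The points share depth and base composition within a library, and a gene was chosen on the mean of 3 of the 9 samples. This correlation was not taken for genes outside the list, so it is not shown to be particular to the members. The 715 retina-preferring genes compared below also had medians of 62.3% in 1-month replicate 2 and 7.80% in 2-month replicate 3. The spread between RPE-choroid replicates was wide for the members. Their median SD on that log2 scale was 1.39 without an operation, 0.37 after 1 month and 0.98 after 2 months, against 0.25, 0.19 and 0.19 for the 6497 other genes.

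A second set of genes ran the other way. The 1369 RPE-choroid-preferring genes, with T of -1 or lower and at least 32 CPM in non-operated RPE-choroid, summed to 14.8%, 12.3% and 21.3% of the counts on genes at 1 month. They summed to 28.9%, 29.7% and 35.8% at 2 months and to 28.7%, 36.3% and 16.7% in non-operated RPE-choroid. The order of the 9 samples by this share is the reverse of their order by member level, apart from samples that the members did not separate. Both are parts of one total, and T of each set uses the non-operated samples, so a part of this opposition is built in. In retina the same genes summed to 4.36% to 4.60% without an operation, 6.54% to 8.48% after 1 month and 5.54% to 8.68% after 2 months.

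**Figure D2:**
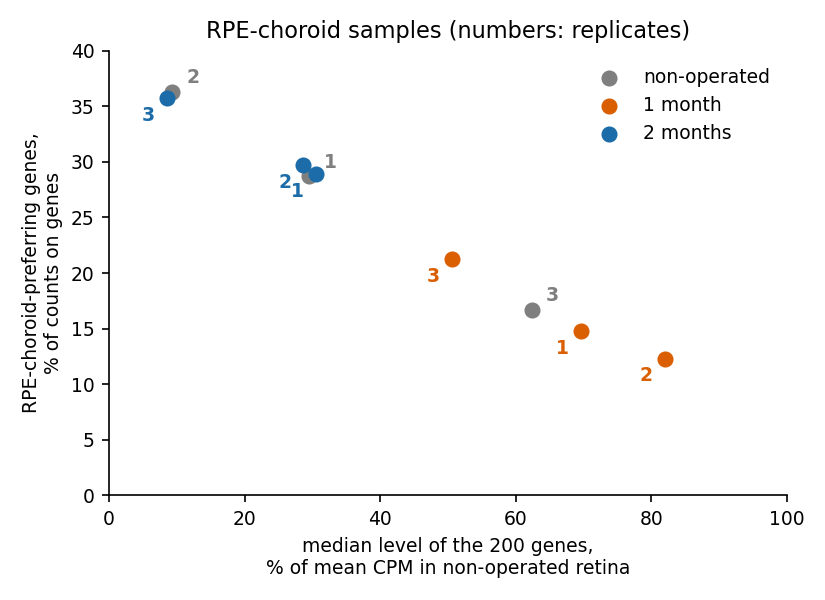
Each point is 1 of the 9 RPE-choroid samples, with the median level of the 200 members (% of mean CPM in non-operated retina) on the x axis and the summed share of 1369 RPE-choroid-preferring genes (% of counts on genes) on the y axis. The points fall from 82.0% and 12.3% in 1-month replicate 2 to 8.51% and 35.8% in 2-month replicate 3.

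The members were compared with the 715 genes that met the limits on T and retina level but not those on constancy in retina. The 90 genes that met the whole rule and fell beyond the cap are in neither set. In retina the 715 stood at 72.0% ± 6.5 of their non-operated level at 1 month and at 76.1% ± 9.3 at 2 months (SD, n = 3 each). Against the non-operated retina level, the others stood in RPE-choroid at 51.3% ± 13.8 at 1 month and 18.3% ± 9.1 at 2 months, beside 67.4% and 22.6% for the members. By sample the others stood at 55.9%, 62.3% and 35.8% at 1 month and at 23.6%, 23.6% and 7.80% at 2 months, each below the members' value in that sample. Against the mean retina level of the same time, the members stood at 69.9% and the others at 71.2% ± 19.5 at 1 month, and the members at 22.1% ± 11.8 and the others at 22.2% ± 10.5 at 2 months (SD, n = 3). The gap between the sets was then far below the spread between samples. By sample, the members stood at 73.1%, 84.1% and 52.6% and the others at 78.7%, 85.8% and 49.0% of the 1-month retina.

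The comparison of 2 months with 1 month in RPE-choroid was the one the rule did not use. All 200 members passed the filter on low counts. All 200 had a negative fitted log2 fold change, from -2.90 to -0.14, with a median of -1.54, while the median of all 16322 genes tested was 0.01. In 184 of 200 members all 3 samples at 2 months were below all 3 at 1 month, beside 26.4% of all genes tested. The members moved together across samples, so their number adds little to the 3 samples per group.

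No member passed an adjusted p of 0.05 in edgeR's quasi-likelihood test (0% of all genes tested were called in either direction), and the smallest adjusted p was 0.0503, for member 14. At an unadjusted p under 0.05, 90 members were lower and none was higher, beside 11.5% of all genes lower and 18.9% higher. DESeq2 called 61 members lower beside 5.41% of all genes. With only the 6 samples of these 2 groups in the edgeR fit 69 were lower, beside 6.19%, and with all 18 samples in one fit 92, beside 9.27%. With the replicate number as a block, 0 members passed and 42 were lower at an unadjusted p under 0.05, beside 8.39% of all genes. The median standard error of a member was 0.68 on the log2 scale, against 0.30 for all genes tested. In the fit with all 18 samples the median standard error of a member was 0.51. That fit also drew its estimate of spread from the retina samples. It treated the tissues as independent, although the study describes dissecting both from the enucleated eyes.

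**Figure D3:**
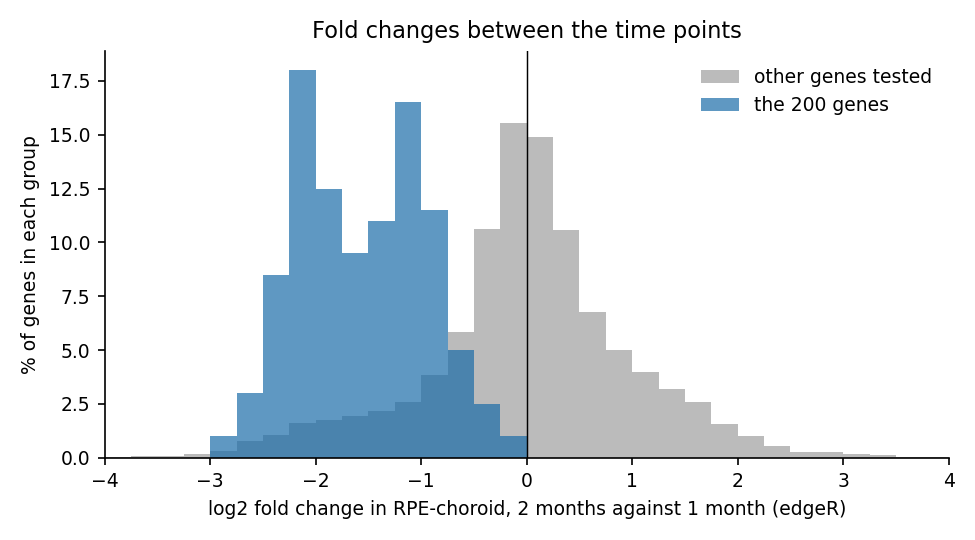
Fitted log2 fold change in RPE-choroid at 2 months against 1 month (x axis) as the percent of genes in bins of 0.25 (y axis), for the 200 members and for the other genes tested. Members lie between -2.90 and -0.14, with a median of -1.54, and all genes tested centre at 0.01.

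The members parted by how low they went. In non-operated replicate 2 of RPE-choroid, 40 members stood under 1% of their retina level, 67 from 1% to under 10% and 93 at 10% or more. In 2-month replicate 3, 44 members were under 1%. Of these, 36 were under 1% in both samples, which is 90.0% of the first list and 81.8% of the second. Only 2 members were under 1% in any of the other 7 RPE-choroid samples, members 10 and 13.

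The 40 members of the lowest class had a median of 0.38% of the retina level in non-operated replicate 2, where they were chosen, and of 0.20% in 2-month replicate 3. In the other RPE-choroid samples they were far from absent. Their medians were 64.4%, 80.6% and 45.3% at 1 month, 19.0% and 20.4% in 2-month replicates 1 and 2, and 21.9% and 55.8% in non-operated replicates 1 and 3. No count was found for 1 member in non-operated replicate 2 and for 3 in 2-month replicate 3.

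The 93 members of the highest class stayed higher. Their medians were 21.9% in non-operated replicate 2, where they were chosen, and 19.3% in 2-month replicate 3. They were 37.7% to 39.2% in the 3 middle samples and 84.7% in 1-month replicate 2. The 67 members between had medians of 4.52% and 4.48% in the 2 lowest samples and 80.5% in 1-month replicate 2. In the 1-month samples the 3 class medians lay between 64.4% and 75.9%, 80.5% and 84.7%, and 45.3% and 55.0%. In 2-month replicate 3, which did not define the classes, they ran from 0.20% in the lowest class to 19.3% in the highest. The classes were cut after the values were seen. Their separation in non-operated replicate 2 is their definition and not a result.

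**Figure D4:**
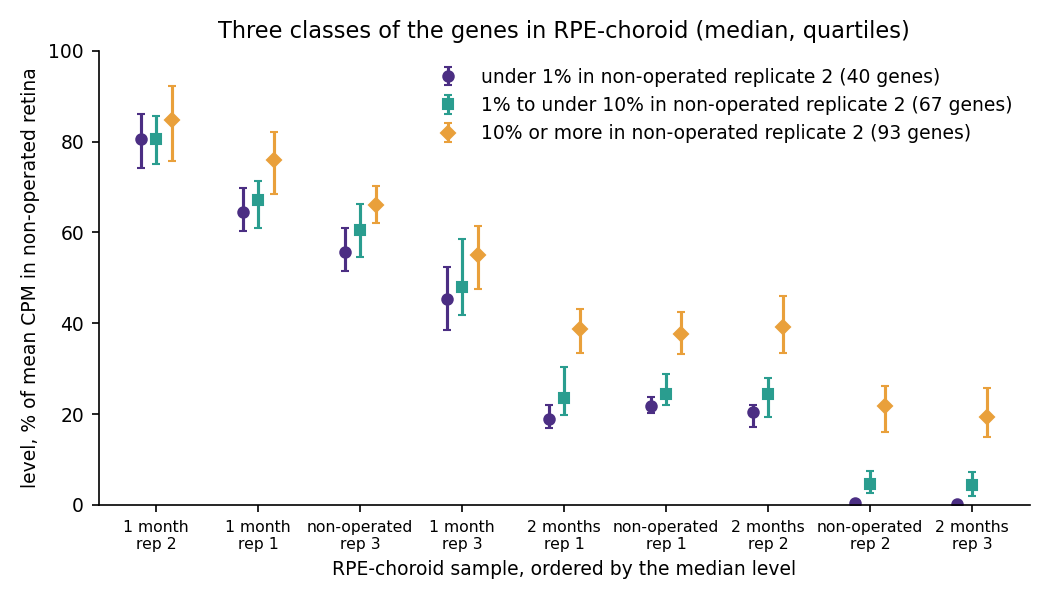
Median level (% of mean CPM in non-operated retina, bars show quartiles) of 3 classes of members in the 9 RPE-choroid samples, ordered by the median of all members. The lowest class of 40 members falls to 0.38% and 0.20% in the 2 samples on the right, where the highest class of 93 members stays at 21.9% and 19.3%. The classes were cut by the level in non-operated replicate 2, so their separation in that sample is by definition.

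Fold changes at 2 months against 1 month followed the same classes, and their errors did too. The median log2 fold change was -2.25 in the lowest class, -1.89 in the middle and -1.08 in the highest. At an unadjusted p under 0.05, 0 of 40, 23 of 67 and 67 of 93 members were lower, beside 11.5% of all genes tested. The class with the largest fold changes thus had no call even at that threshold. The non-operated samples were in this fit and entered its estimate of spread. The lowest class was chosen by a very low level in non-operated replicate 2, so a wide spread was partly built in. The calls therefore cannot compare the classes, and nothing is read from their difference. In the lowest class, 2-month replicate 3 also lay far below the other 2 samples of its group.

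Member 1, the highest in retina, shows the lowest class in full. It had 2357, 2384 and 1995 CPM in non-operated retina, 1942, 2223 and 1791 CPM in retina at 1 month and 1993, 2058 and 2157 CPM at 2 months. In RPE-choroid it had 1457, 1696 and 959 CPM at 1 month, 353, 419 and 3.47 CPM at 2 months, and 529, 11.0 and 1389 CPM in non-operated eyes. A gene with 1389 to 1696 CPM in 3 RPE-choroid samples thus had 11.0 and 3.47 CPM in others of the same tissue, and the non-operated samples alone held both ends. The fitted log2 fold change at 2 months against 1 month was -2.38 (SE 1.61, adjusted p = 0.322, edgeR).

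Member 2 shows the highest class. It had 1248, 1241 and 1100 CPM in non-operated retina. In RPE-choroid it had 780, 925 and 603 CPM at 1 month, 390, 421 and 256 CPM at 2 months, and 458, 245 and 763 CPM in non-operated eyes. Here the lowest RPE-choroid sample still held 245 CPM, and the 1-month and 2-month samples did not overlap. The log2 fold change was -1.04 (SE 0.36, adjusted p = 0.107, edgeR).

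Member 3 had 1065, 1076 and 1135 CPM in non-operated retina. In RPE-choroid it had 872, 937 and 525 CPM at 1 month, 176, 172 and 6.86 CPM at 2 months, and 230, 10.5 and 746 CPM in non-operated eyes. It followed member 1, with the same 2 samples near the bottom (log2 fold change -2.69, SE 1.38, adjusted p = 0.215, edgeR). Member 14, with the smallest adjusted p of the list, had 446, 531 and 404 CPM at 1 month and 198, 178 and 164 CPM at 2 months. Its 3 samples at each time lay close together, and its log2 fold change was -1.27 (SE 0.23).

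The members of lowest log2 fold change at 2 months against 1 month were ENSOCUG00000013681 (member 195) and ENSOCUG00000029183 (member 20). ENSOCUG00000013681 had 38.1, 59.2 and 30.3 CPM at 1 month and 8.35, 8.36 and 0.039 CPM at 2 months, and 13.8, 0.034 and 30.6 CPM in non-operated RPE-choroid. ENSOCUG00000029183 had 305, 329 and 264 CPM at 1 month, 51.0, 70.2 and 5.20 CPM at 2 months, and 73.9, 6.95 and 316 CPM in non-operated RPE-choroid. In both, every 2-month sample was below every 1-month sample (log2 fold changes -2.90, SE 1.65, and -2.80, SE 1.22). Neither passed, with edgeR adjusted p = 0.253 and 0.165.

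The members of highest log2 fold change were ENSOCUG00000009732 (member 100) and ENSOCUG00000014970 (member 109). ENSOCUG00000009732 had 158, 165 and 70.5 CPM at 1 month, 154, 187 and 8.51 CPM at 2 months, and 64.3, 45.6 and 104 CPM in non-operated RPE-choroid. It differed from the list in 2-month replicates 1 and 2, which were as high as the 1-month samples, while replicate 3 was the lowest of the 9 (log2 fold change -0.14, SE 0.84). ENSOCUG00000014970 had 89.0, 98.3 and 74.0 CPM at 1 month and 92.3, 86.8 and 46.3 CPM at 2 months, and 59.9, 43.7 and 89.5 CPM in non-operated RPE-choroid. Its 1-month and 2-month samples overlapped (log2 fold change -0.15, SE 0.27), and neither gene passed, with edgeR adjusted p = 0.921 and 0.712.

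Of the members at the ends of T, member 10 is described further on. Member 25, with the highest T of 2.21, had 190, 242 and 210 CPM at 1 month, 71.7, 63.9 and 1.39 CPM at 2 months and 69.1, 6.10 and 184 CPM in non-operated RPE-choroid. Member 76, with the lowest T of 1.00, had 162, 187 and 107 CPM at 1 month, 82.1, 91.5 and 48.2 CPM at 2 months and 89.3, 72.2 and 126 CPM in non-operated RPE-choroid. Member 104, with a T of 1.01, had 118, 116 and 84.1 CPM at 1 month and 54.2, 62.9 and 49.3 CPM at 2 months. In non-operated RPE-choroid it had 72.0, 42.6 and 101 CPM. The lowest sample was thus near 1 CPM for member 25 and stayed above 40 CPM for members 76 and 104, whose log2 fold changes were -0.97 (SE 0.27) and -0.85 (SE 0.26).

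Members 10 and 13 were constant in retina only as group means. They were singled out after their values were seen. In non-operated retina member 10 had 620, 1573 and 1.42 CPM, and member 13 had 483, 1203 and 1.52 CPM. At 1 month in retina member 10 had 1219, 1309 and 1.57 CPM, and member 13 had 922, 1053 and 1.28 CPM. Replicate 3 was near 1 CPM in both groups, so a group mean came from the other 2 samples, and at 2 months no sample was near 0, with 615 to 946 CPM for member 10.

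The same held in RPE-choroid at the same replicate numbers. Member 10 had 685, 862 and 1.25 CPM at 1 month, 301, 347 and 133 CPM at 2 months and 219, 266 and 0.82 CPM in non-operated eyes. Member 13 had 516, 672 and 1.14 CPM at 1 month, 230, 285 and 92.6 CPM at 2 months and 184, 199 and 1.05 CPM in non-operated eyes. The 4 samples near 1 CPM were replicate 3 of the non-operated and 1-month groups in both tissues. In the other 14 samples the ratio of member 10 to member 13 stayed between 1.19 and 1.43. Whether the pair shares reads through like sequence was not tested, since the sequences of these identifiers were not used here.

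**Figure D5:**
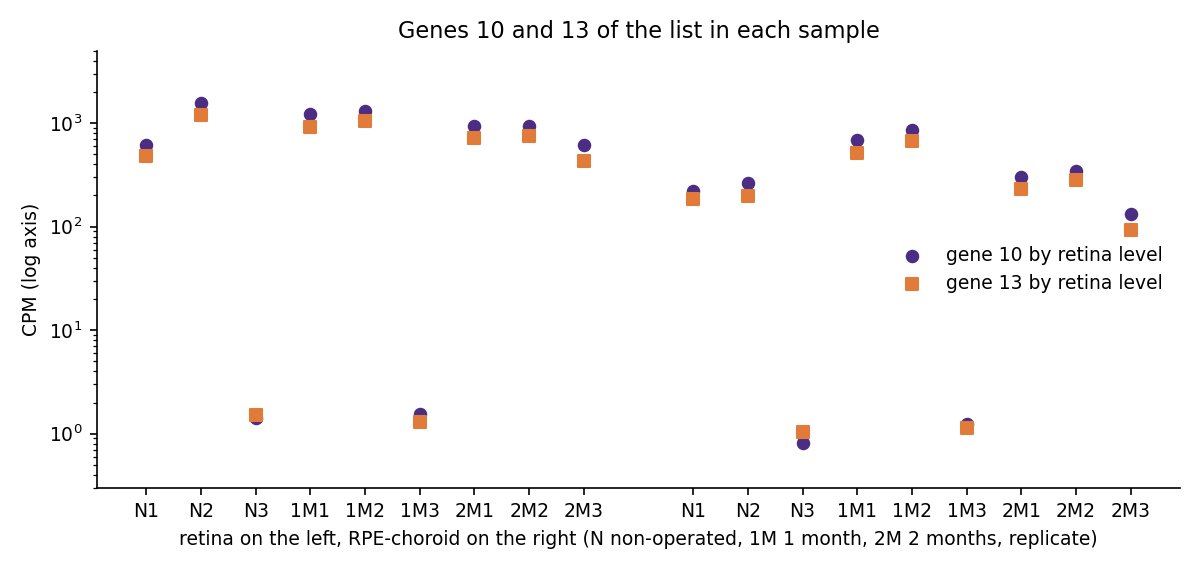
CPM (log axis) of members 10 and 13 in each of the 18 samples, by tissue, group and replicate. Both genes lie between 0.82 and 1.57 CPM in replicate 3 of the non-operated and 1-month groups of both tissues, and at 92.6 CPM or more in the other 14 samples.

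Both comparisons with non-operated RPE-choroid share samples with T and are a description. They also share the non-operated samples with each other. At 1 month against non-operated eyes all 200 members had a positive log2 fold change, from 0.21 to 1.55 (median 0.95, all genes tested -0.01). In 35 members all 3 samples at 1 month were above all 3 non-operated samples, beside 17.8% of all genes, which for 200 members is a like share. No member passed in edgeR (0.0123% of all genes were called higher). In that fit 13 were higher at an unadjusted p under 0.05 beside 7.82% of all genes, and 0 lower beside 2173 of 16322 genes. DESeq2 called 2 higher beside 2.37%, and edgeR with all 18 samples called 4 higher beside 3.12%.

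One sample decided much of that comparison. Without non-operated replicate 3, which stood at 62.3% of the retina level, edgeR called 27 members higher at 1 month beside 4.05% of all genes, and the median log2 fold change was 1.62. Without non-operated replicate 2 the median was 0.52 and 0 members passed in edgeR, with 4 higher at an unadjusted p under 0.05 beside 5.48% of all genes.

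At 2 months against non-operated eyes 190 of 200 members had a negative log2 fold change, with a range of -1.69 to 0.63 and a median of -0.63 (all genes tested -0.01). No member passed in edgeR (0% of all genes lower) or in DESeq2 (0.451%). At an unadjusted p under 0.05 there were 2 lower in edgeR, beside 3.85% of all genes, and 0 higher, beside 1117 of 16322 genes. In 1 member all 3 samples at 2 months were below all 3 non-operated samples, beside 3.58%. The direction rested on 1 sample, since the median became 0.09 without non-operated replicate 3 and -1.03 without non-operated replicate 2. Without 2-month replicate 3 it was -0.29.

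Genes outside the list were tested in RPE-choroid with and without the member level in the fit. At 2 months against 1 month, 3079 of those genes passed an unadjusted p of 0.05 as higher and 1795 as lower. With the mean log2 CPM of the members as a covariate, the counts were 1797 and 823, and none passed adjustment in either edgeR fit. The 1-month and 2-month samples did not overlap in member level, so for this comparison the time point and the member level cannot be told apart. Nothing is read from the fall in those counts. At 1 month against non-operated eyes, where the levels overlapped, 2 genes outside the list passed without the covariate (both higher) and 35 with it (15 higher, 20 lower). At 2 months against non-operated eyes the counts were 0 without it and 75 with it (56 higher, 19 lower).

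The share of reads with more than 1 alignment also differed between the RPE-choroid samples. In the order of the member level, from 1-month replicate 2 down to 2-month replicate 3, it was 8.47%, 8.49%, 8.03%, 9.62%, 13.7%, 9.01%, 13.2%, 9.32% and 9.96%. The 3 samples with the highest member levels had the 3 lowest shares, and the 3 samples at 2 months had the 3 highest. Its part in the member level was not tested.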

How the data were processed

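The authors trimmed and aligned the reads (Trim Galore, then HISAT2 to OryCun2.0), counted them by gene (HTSeq) and deposited raw counts. The submitters' processing notes list human builds. The 5 summary rows, 46.6% to 52.9% of the reads, were left out. CPM used the total of gene rows. The non-operated RPE-choroid column of replicate 2 was matched by its title. The 9 samples of a tissue were fitted together in edgeR 4.0.16 (R 4.3.3), with TMM, filterByExpr (minimum count 10, minimum total 15) and the two-sided robust quasi-likelihood test, called at a Benjamini-Hochberg adjusted p under 0.05 and tested on simulated data. The standard error is the log2 fold change over the signed root of F. DESeq2 1.42.0 was an alternative. At these depths the spread between samples, more than counting error, limits precision. The RefSeq table (mOryCun1.1, 38822 rows) matched 0 of 29587 identifiers, so marker and pathway lists were not applied and no sequences are shown. The members and lists were chosen with earlier results of these data known.

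Members described in every RPE-choroid sample were the first 3, the 2 at each end of log2 fold change at 2 months against 1 month, the only ones given by identifier, and the 2 at each end of T, which include member 10. Members 13, 14, 115 and 167 were added after their values were seen. Replicate numbers come from the sample titles. At 2 months against 1 month, deviations of same-numbered RPE-choroid samples from their group means had correlations of 0.177, 0.371 and 0.399, all above 0.1. Replicate 1 correlated more with another number (0.367). The study lists different rabbits for the 2 time points, so the numbers do not pair animals there. The replicate block is therefore only an alternative fit. Plain library sizes, and only the members under 1% in non-operated replicate 2, were alternatives chosen after seeing the data.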

Additional observations from a re-analysis of the deposited data

How the results depend on the processing

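The member level in RPE-choroid moved by less than the SD of the 3 samples under every alternative that gave a value. It ranged from 13.2% to 29.6% at 2 months, 60.1% to 75.8% at 1 month and 19.4% to 45.9% in non-operated eyes. Leaving out 1 of 3 samples cannot move their mean by a full SD, so for those settings this outcome was fixed in advance. The median fold changes, not taken with the members' own level as covariate, kept their direction except at 2 months against non-operated eyes. There the median ran from -1.03 to 0.0918 with each replicate left out, and was 0.0918 without non-operated replicate 3. Members lower at 2 months against 1 month numbered 0 in the edgeR fit and 1 with plain library sizes, beside 53 of all 16322 genes tested. With no low-count filter there were 2, beside 72 of 23135 genes. With at least 10 counts in every sample there were 6 of the 177 members tested, beside 249 of 13733 genes. There were 61 with DESeq2, 69 with only the 2 groups and 92 with all 18 samples, beside the shares of all genes given above. Members higher at 1 month against non-operated eyes, 0 in the edgeR fit, numbered 2 with DESeq2, 4 with all 18 samples and 0 to 27 with each replicate left out. Genes outside the list called at 2 months against 1 month, 0 in the edgeR fit, numbered 270 with plain library sizes, 466 with no filter, 1078 with at least 10 counts, 2884 with the 2 groups, 3176 with DESeq2, 3700 with all 18 samples and 0 to 27 with each replicate left out. At 1 month against non-operated eyes there were 2, and 1, 5, 8, 0, 1501 and 1469 under the same settings in that order, 35 with the member level as covariate and 0 to 2127 with each replicate left out. At 2 months against non-operated eyes there were 0, and 1 with at least 10 counts, 6 with all 18 samples, 75 with the covariate, 350 with DESeq2 and 0 to 24 with each replicate left out. The cause was not tested.

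With the replicate block, 0 members passed in any comparison and 0 rather than 2 genes outside the list passed at 1 month against non-operated eyes. In the comparisons with non-operated eyes, same-numbered samples did not all deviate together (correlations 0.061, -0.37 and -0.27 at 1 month, 0.31, -0.55 and -0.59 at 2 months).

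The genes that met the rule before the cap, 290, numbered 150 with a limit of change of 0.15, 507 with 0.5 and 0 with T of at least 3, where no level could be given. They numbered 227 with TMM-scaled CPM, where 123 of the 200 members were chosen again, and 250 to 293 with each retina replicate left out, where 153 to 190 were.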

Other observations

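After members 10 and 13 were left out, each RPE-choroid sample was compared with the 3 retina samples of its own group over the levels of the other 198 members, as the log2 of the percent of mean non-operated retina CPM plus 0.5. In 7 of 9 RPE-choroid samples the highest correlation was with the retina sample of the same number, at 0.59, 0.53 and 0.33 at 1 month, 0.24 and 0.22 for 2-month replicates 1 and 3, and 0.25 and 0.44 for non-operated replicates 1 and 3. Two-month replicate 2 (0.23 with retina replicate 1, 0.20 with its own number) and non-operated replicate 2 (0.05 with retina replicate 1, -0.05 with its own number) were the others. The labels do not say whether same-numbered samples of the 2 tissues came from one eye, and these values are a description.

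Outside the members, 12 genes stood under 5% of their tissue's median CPM in 2-month replicates 1 and 2 of both tissues (genes with a median of at least 10 CPM in each tissue), and none of them is a member. By the same limit, members included, same-numbered samples of the 2 tissues shared 4 genes for each non-operated replicate. They shared 1, 1 and 2 at 1 month and 2 for 2-month replicate 3. Other pairs of a retina and an RPE-choroid sample shared 0 to 3, apart from 2-month replicates 1 and 2. Whether such samples came from one animal was not tested.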
